A study of Homo sapiens with 6 samples.

Results

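Interferon-stimulated genes and their regulators were followed in M14 cells, an established human melanoma line, grown as floating spheres and as an adherent layer. Of a list of 45 such genes, matched by symbol with the older name DDX58 standing for RIGI, 42 had a row among the 26748 Ensembl genes of the deposited table. The other 3, IRF9, CMPK2 and XAF1, were not analysed here. Of the 42, 39 reached a mean of 10 normalised counts and were tested, while RSAD2, IFI44L and EPSTI1 did not.

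The groups were non-adherent 3D melanospheres (3 libraries) and conventional adherent 2D cultures (3 libraries) of the same line, with no agent, genotype difference or interferon treatment named in the labels. The study asked how cell populations differ between these cultures, with putative cancer stem cells in view. Poly(A) RNA was sequenced, and values are normalised counts, which are reads per gene divided by 1 size factor per library. Nothing in the labels says that replicates came from separate cultures. The spread behind the p-values may therefore be technical, and 1 line is the only model.

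Type I and type II interferons bind receptors that carry the kinases JAK1 and TYK2 or JAK1 and JAK2. These kinases phosphorylate STAT proteins, whose complexes enter the nucleus and bind the interferon-stimulated response element (ISRE) or gamma-activated sites (GAS) in front of many antiviral genes. Melanoma cells are known to respond to interferon, which raises antigen presentation and slows growth in many lines.

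With all 6 libraries, the neighbours IFIT1 and IFIT5 moved in opposite directions and MX1 fell, while IFI6, BST2 and ISG15 depended on 1 library. With 1 library left out, IFIT1 and IFIT5 too were called only without 2D replicate 3, and MX1 was called in every such fit. The promoters of these 6 members are shown because they carry the main contrast of the data. Each runs 5′ to 3′ on the strand of its gene, from 250 bases before to 50 bases after the start site (RefSeq, GRCh38.p14), and capitals mark matches, on either strand, to the ISRE core (GAAA, any 2 bases, GAAA).
IFIT1 promoter, chr10:89392373-89392672, plus strand: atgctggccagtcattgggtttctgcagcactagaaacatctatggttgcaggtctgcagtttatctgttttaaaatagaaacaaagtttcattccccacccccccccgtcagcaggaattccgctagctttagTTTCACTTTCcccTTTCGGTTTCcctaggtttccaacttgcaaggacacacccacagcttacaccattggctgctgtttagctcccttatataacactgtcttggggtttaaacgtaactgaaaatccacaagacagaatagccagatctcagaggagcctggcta
IFIT5 promoter, chr10:89414318-89414617, plus strand: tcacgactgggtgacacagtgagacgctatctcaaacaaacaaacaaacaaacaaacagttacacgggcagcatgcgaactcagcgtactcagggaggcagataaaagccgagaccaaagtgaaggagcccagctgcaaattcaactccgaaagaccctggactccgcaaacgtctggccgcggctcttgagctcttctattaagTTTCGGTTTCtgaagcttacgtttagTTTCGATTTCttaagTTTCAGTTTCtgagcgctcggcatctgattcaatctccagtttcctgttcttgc
MX1 promoter, chr21:41420308-41420607, plus strand: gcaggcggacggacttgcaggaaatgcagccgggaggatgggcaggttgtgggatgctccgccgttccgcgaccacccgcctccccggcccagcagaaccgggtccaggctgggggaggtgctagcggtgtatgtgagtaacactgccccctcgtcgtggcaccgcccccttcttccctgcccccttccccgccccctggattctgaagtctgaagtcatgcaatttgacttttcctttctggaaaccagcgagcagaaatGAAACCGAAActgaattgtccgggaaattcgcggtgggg
IFI6 promoter, chr1:27672143-27672442, minus strand: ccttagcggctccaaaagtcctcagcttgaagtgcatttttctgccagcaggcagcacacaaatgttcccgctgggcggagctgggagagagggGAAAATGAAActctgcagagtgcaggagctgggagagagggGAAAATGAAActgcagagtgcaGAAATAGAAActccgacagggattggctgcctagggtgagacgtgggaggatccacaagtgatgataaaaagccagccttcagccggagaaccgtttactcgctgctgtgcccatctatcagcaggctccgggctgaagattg
BST2 promoter, chr19:17405581-17405880, minus strand: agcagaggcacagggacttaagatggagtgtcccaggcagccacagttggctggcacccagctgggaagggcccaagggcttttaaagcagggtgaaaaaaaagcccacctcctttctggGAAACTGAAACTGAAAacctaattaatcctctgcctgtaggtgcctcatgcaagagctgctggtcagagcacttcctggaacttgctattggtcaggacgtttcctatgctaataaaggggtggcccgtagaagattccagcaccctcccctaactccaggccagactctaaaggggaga
ISG15 promoter, chr1:1013247-1013546, plus strand: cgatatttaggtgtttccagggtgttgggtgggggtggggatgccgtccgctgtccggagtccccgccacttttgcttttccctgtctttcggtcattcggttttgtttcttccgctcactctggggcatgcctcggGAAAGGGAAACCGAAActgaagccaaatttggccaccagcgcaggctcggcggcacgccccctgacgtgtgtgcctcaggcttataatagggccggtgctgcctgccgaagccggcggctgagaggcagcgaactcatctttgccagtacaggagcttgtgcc

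IFIT1 held 2 matches, starting 116 and 103 bases before the start site, and IFIT5 held 3, starting 45, 19 and 4 bases before it. The only match in the MX1 window shown began 11 bases after the start site. IFI6 held 3 matches, and BST2 and ISG15 held 2 overlapping matches each. The ISRE core was found in 19 of the 32 members with a row and a promoter window (59.4%), against 1195 of all 27305 genes with a window (4.38%). The GAS letters TTCNNNGAA, searched on both strands, were in 8 of the 32 members (25%), against 9.38% of all genes. Some genes have several windows, and a match in any of them was counted; the letters may overlap one another. Among tested members with a window, the core was in 2 of 4 called higher, in 2 of 5 called lower and in 12 of 20 not called. A match is a description of the letters and not a bound site.

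Across the libraries, recovered totals ran from 16567763 to 19954987 reads, and each 3D library detected 22458 to 23572 genes, against 20841 to 21772 for each 2D library. On log2 values of the tested genes, 3D replicate 2 correlated with the other 3D libraries at 0.966 and 0.967, against 0.987 between those, and 2D replicate 3 with the other 2D libraries at 0.943 and 0.945, against 0.984 between those. These 2 libraries therefore stood apart, and results are given with and without them where that mattered. Of 12 melanocytic markers, PMEL and MITF were well covered (1071 ± 398 and 288 ± 19.0 normalised counts in 3D, 434 ± 280 and 1131 ± 215 in 2D, SD, n = 3 each), but PAX3 and EDNRB were at 0 in 3D and at no more than 6.17 in 2D. SOX10, which defines the lineage, stood at no more than 4.85 in 3D and at 4.77, 6.41 and 37.01 in 2D replicates 1 to 3, and S100B at no more than 0.969 in 3D, against 0.953, 1.07 and 13.4 in 2D. The pigment genes TYR and DCT had 1 and 2 reads in all 3D libraries together, against 43 and 207 reads in 2D, and both were highest in 2D replicate 3. Of the 5 melanocytic markers tested, S100A1 was called higher in 3D, and DCT and MITF were called lower. S100A1 averaged 76.8 ± 7.46 in 3D and 17.9 ± 13.2 in 2D, without overlap (SD, n = 3 each, limma adjusted p = 0.02). It was called in 3 of the 6 leave-one-out fits. GPR143 was not called, at 186 ± 216 in 3D and 69.2 ± 34.6 in 2D (SD), with 435 in 3D replicate 2. The summed level of the melanocytic markers was 1414 to 1808 in 3D and 1690 to 1945 in 2D. Markers of immune cells summed to 161 to 239 in 3D and 64.8 to 122 in 2D, with PTPRC, which all leukocytes carry, at no more than 4.27. The fibroblast markers summed to 9268 to 12212 in 3D, against 2043, 2588 and 6539 in 2D replicates 1, 2 and 3. COL1A1 and COL3A1 made up most of this, and DCN and FAP stayed at or under 4.85 in every library. PDGFRB had 223, 981 and 246 in 3D, against 61.9, 56.6 and 536 in 2D, so it was highest in 3D replicate 2 and 2D replicate 3 within each culture. Endothelial markers summed to 141 to 188 in 3D, against 63.9, 52.3 and 321 in 2D replicates 1 to 3, but the single genes differed. PECAM1 had 94.6, 154 and 101 in 3D, against 0, 0 and 9.25 in 2D (limma adjusted p = 0.004). CDH5 had 19.5, 21.3 and 21.7 in 3D, against 25.7, 13.9 and 268 in 2D. VWF averaged 17.7 ± 7.43 in 3D and 31.0 ± 8.41 in 2D (SD, n = 3 each). Keratinocyte markers, mostly KRT10, summed to 729 to 1177 in 3D, against 929 to 2133 in 2D. The part of these markers in the results was not tested. In bulk RNA, fewer cells of a type and less RNA per cell cannot be told apart.

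With all 6 libraries, 12 of 39 tested members passed an adjusted p of 0.05 (limma, Benjamini-Hochberg over all 15598 genes tested), 30.8% beside a background of 24.1% of all genes. Of these, 5 were higher in 3D (IFIT1, OAS1, OASL, RIGI and IFITM1; 12.8%, background 12.5%) and 7 were lower (MX1, MX2, IFITM2, HERC6, IFIT5, JAK1 and STAT3; 17.9%, background 11.6%). The median log2 change of the members was 0.06, beside -0.02 over all genes, with 20 members above 0 and 19 below. The 3D and 2D values of 9 members did not overlap with 3D above (23.1%, background 20.5%), and those of 10 did not overlap with 3D below (25.6%, background 22.6%). The higher share and the shares without overlap were near those of all genes.

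**Figure D1:**
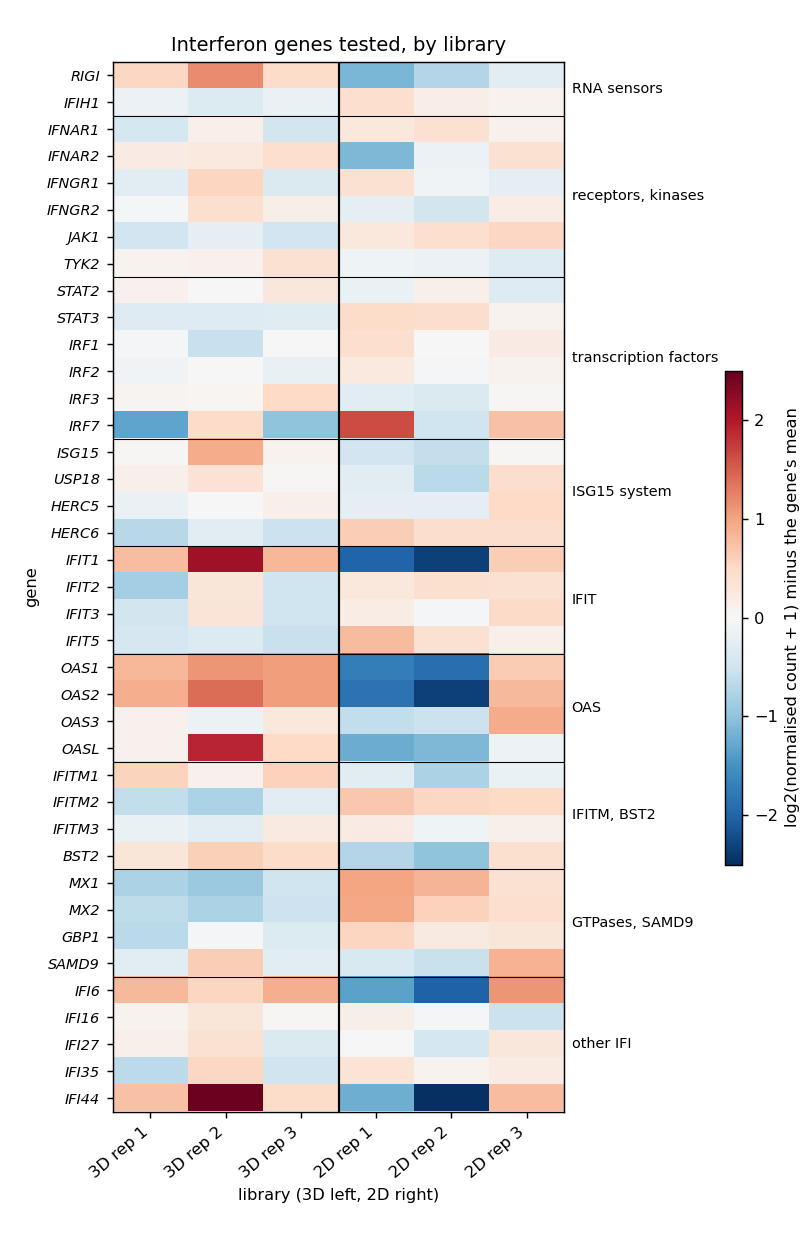
Each row is a tested member and each column a library, with 3D libraries left of 2D libraries; the colour is log2(normalised count + 1) minus the gene's mean over the 6 libraries, and colours saturate at the ends of the bar. The OAS genes, IFIT1, IFI6 and BST2 are low in 2D replicates 1 and 2 and close to the 3D libraries in 2D replicate 3, while MX1, MX2 and HERC6 are low in all 3D libraries.

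The calls depended on which libraries were fitted. Without 2D replicate 3, 13 of 39 members were higher in 3D (background 22.7%) and 8 were lower (background 22.8%), and the median log2 change was 0.15. With 3D replicate 2 left out as well, 13 of 38 members were higher (background 28.2%) and 15 lower (background 29.4%). Leaving out 3D replicate 2 alone gave 1 higher (background 9.99%) and 8 lower (background 9.07%). By limma no member was higher without 3D replicate 1 (background 3.82%), 3D replicate 3 (3.36%), 2D replicate 1 (5.48%) or 2D replicate 2 (6.8%). At an unadjusted p under 0.05 these 4 fits had 6 to 8 of 39 members higher, beside 14.1% to 16.5% of all genes, and all 6 libraries gave 10, beside 20% of all genes. Lower members numbered 2 when 3D replicate 1 (background 4.48%) or 3D replicate 3 (4.25%) was dropped. They numbered 3 when 2D replicate 1 (4.59%) or 2D replicate 2 (5.01%) was dropped. On all 6 libraries edgeR called 3 members higher (background 12.5%) and DESeq2 called 5 (background 15.4%). Both called the same 7 members lower as limma did (limma background 11.6%). Of all 15598 genes tested, edgeR called 3657 in either direction, 1944 of them higher. DESeq2 called 4724, 2408 of them higher, so many genes were called lower by both tests as well. Scaled to equal library totals, 7 members were higher (background 15.5%) and 6 lower (background 8.01%), with the median of all genes moved to 0.11. MX1 and IFITM2 were called with all 6 libraries and in each of the 6 fits with a library left out, which held for 6.64% of all genes tested.

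On the log2 scale, the value of 2D replicate 3 was nearer to the 3D mean than to the mean of 2D replicates 1 and 2 for 17 of the 39 members (43.6%), against 52.4% of all genes. It did so for all 4 OAS genes. In 3D replicate 2, 13 members reached their highest value of the 6 libraries (33.3%, against 16.4% of all genes). The mean of the members' centred log2 values was -0.08, 0.31 and 0.02 in 3D replicates 1 to 3, against -0.15, -0.39 and 0.29 in 2D replicates 1 to 3, so 2D replicate 3 stood within the 3D range.

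**Figure D2:**
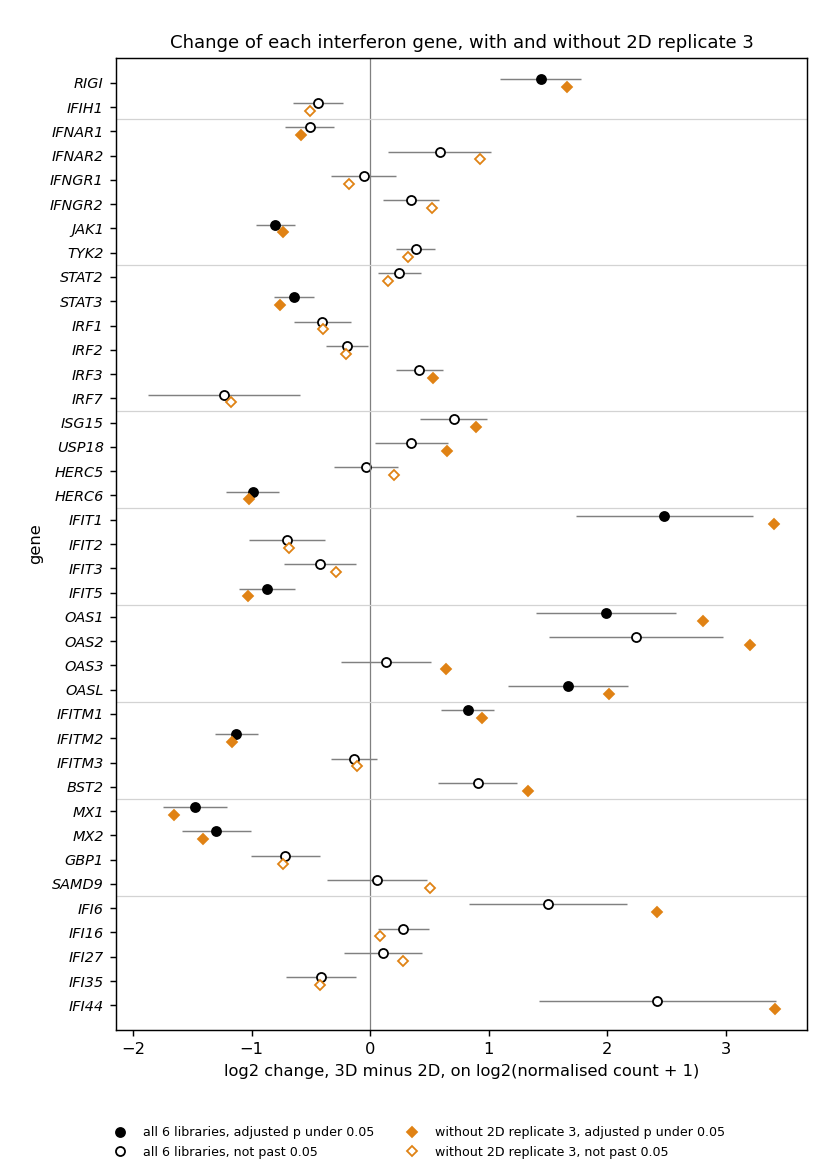
The x axis is the log2 change, 3D minus 2D, on log2(normalised count + 1), with 1 row per tested member; circles are fits to all 6 libraries with the standard error as a bar, diamonds are fits without 2D replicate 3, and filled symbols have an adjusted p under 0.05. The circles run from -1.48 (MX1) to 2.48 (IFIT1), and IFIT1, OAS1, OAS2, IFI6 and IFI44 move furthest when the library is left out.

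Levels per length differed more between members than between cultures. BST2, a membrane tether of budding virus, was the highest member in 3D, at 5483 normalised counts per kilobase of exon in 3D and 3206 in 2D. IFITM3 stood at 3921 in 3D and 4283 in 2D, and IFI6 at 2437 in 3D and 1335 in 2D on the same scale. The GTPase genes MX1 and MX2, often used as readouts of interferon action, ranked 38 and 39 of the 42 members in 3D and 30 and 36 in 2D, at 8.97 and 3.19 in 3D and 25.4 and 8.05 in 2D. The length is that of all annotated exons of a gene merged, 8616 bases for MX1 and 13047 for MX2. It may exceed that of the transcript expressed, so these ranks depend in part on the length used.

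**Figure D3:**
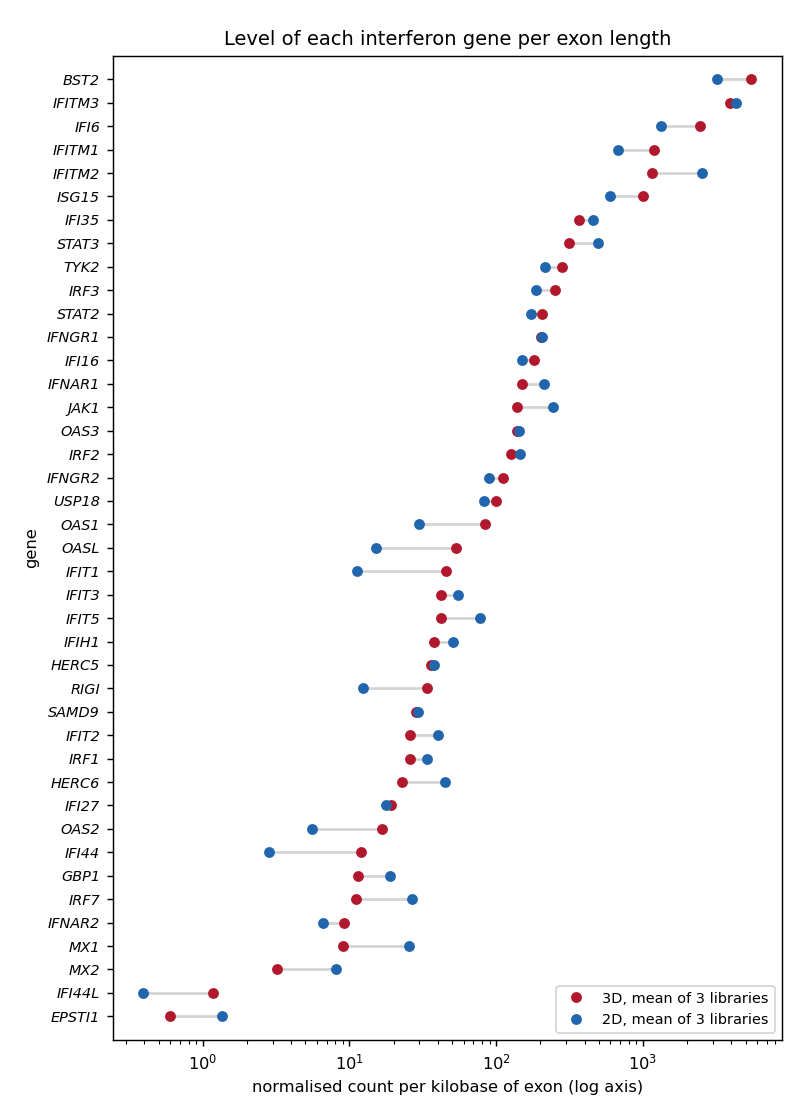
The x axis is the mean normalised count per kilobase of exon on a log axis, red points for 3D and blue for 2D (3 libraries each), with members ordered by their 3D level; RSAD2, which had 0 reads in 2D, is left out. BST2 is at the top at 5483 in 3D and 3206 in 2D, and IFI44L and EPSTI1 are at the bottom.

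Of the RNA sensors, RIGI rose and IFIH1 did not pass the test. RIGI, which detects viral RNA with an uncapped 5′ end, had 123, 197 and 118 normalised counts in 3D replicates 1 to 3, against 38.1, 51.2 and 70.9 in 2D replicates 1 to 3. Every 3D library was above every 2D library. The log2 change was 1.44 ± 0.34 (SE; limma adjusted p = 0.020). Without 2D replicate 3 it was 1.66 (adjusted p = 0.0033), and without any other library the adjusted p was 0.054 to 0.073. IFIH1, the sensor of long double-stranded RNA also called MDA5, averaged 191 ± 13.0 in 3D and 261 ± 32.7 in 2D (SD, n = 3 each; log2 change -0.44, limma adjusted p = 0.15), with no overlap and 3D below.

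Among the receptors and their kinases, JAK1 fell and the other 5 members were not called with all 6 libraries as deposited. JAK1, the kinase shared by the receptors of all interferon types, had 831, 983 and 827 normalised counts in 3D, against 1391, 1546 and 1667 in 2D. The cultures did not overlap, and 2D replicate 3 was the highest library. 3D minus 2D came to -0.80 ± 0.17 on the log2 scale (SE; limma adjusted p = 0.012). Without 3D replicate 1 and without 3D replicate 3 the adjusted p was 0.064 and 0.063, and in the other 4 such fits 0.0051 to 0.045. IFNAR1, a chain of the type I receptor, had 815, 1210 and 810.3 in 3D, against 1337, 1452 and 1194 in 2D. Only 3D replicate 2 reached into the 2D range. On the log2 scale the difference was -0.51 ± 0.20 (SE; limma adjusted p = 0.097), and the adjusted p was 0.034 without 3D replicate 2, 0.043 without 2D replicate 3 and 0.23 to 0.29 without any other library. The type II receptor chain IFNGR1 averaged 659 ± 240 in 3D and 670.1 ± 154 in 2D (SD, n = 3 each), and the log2 changes of IFNGR2 and TYK2 were 0.34 and 0.38 (limma adjusted p = 0.31 and 0.12). Scaled to equal library totals, TYK2 was at 0.52 (adjusted p = 0.047). IFNAR2 is uncertain, since 83.2% of its exon bases overlap another gene on the same strand, AP000295.1.

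Among the transcription factors, STAT3 fell, and STAT2 and the 4 tested IRF genes were not called with all libraries. STAT3, which also serves the interleukin-6 family, had 2745, 2745 and 2800 normalised counts in 3D, against 4727, 4669 and 3652 in 2D. The 3D libraries lay close together, and the nearest 2D library was replicate 3. This gave a log2 change of -0.64 ± 0.17 (SE; limma adjusted p = 0.027). The adjusted p was 0.0020 without 2D replicate 3 and 0.056 to 0.11 without any other library, and 0.053 with all 6 scaled to equal totals. IRF3, which switches on interferon genes downstream of the sensors, had 855, 841 and 1152 in 3D, against 674, 630 and 826 in 2D. The lowest 3D library was just above the highest 2D library. The fitted log2 change was 0.41 ± 0.20 (SE; limma adjusted p = 0.15), and the adjusted p was 0.043 without 2D replicate 3 and 0.14 to 0.44 without any other. STAT2 averaged 1244 ± 125 in 3D and 1055 ± 166 in 2D (SD, n = 3 each; log2 change 0.24, limma adjusted p = 0.34), and the log2 changes of IRF1 and IRF2 were -0.40 and -0.20 (limma adjusted p = 0.24 and 0.44). Of the exon bases of IRF1 22% and of those of IRF3 19.35% overlap other genes. The largest overlaps are with C5orf56 and BCL2L12, both on the opposite strand. IRF7, which amplifies the type I response, varied most of these between replicates, with 14.8, 53.3 and 18.6 in 3D, against 120.1, 26.7 and 64.8 in 2D (log2 change -1.24, limma adjusted p = 0.18).

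In the ISG15 system, HERC6 fell, and ISG15 and USP18 were called only without 2D replicate 3. HERC6, a ubiquitin-ligase family member that serves ISG15 conjugation in mouse, had 114, 152 and 127 normalised counts in 3D, against 282, 249.8 and 249 in 2D. Every 3D library was well below every 2D library. The log2 change was -0.99 ± 0.22 (SE; limma adjusted p = 0.016). The adjusted p was 0.0061 without 2D replicate 3, 0.020 without 3D replicate 2 and 0.053 to 0.080 without any other library. ISG15, the ubiquitin-like protein itself, had 715, 1343 and 746 in 3D, against 500.4, 464 and 711 in 2D. The cultures did not overlap, but 3D replicates 1 and 3 were close to 2D replicate 3. 3D minus 2D came to 0.70 ± 0.28 on the log2 scale (SE; limma adjusted p = 0.099), and without 2D replicate 3 it was 0.89 (adjusted p = 0.026), against an adjusted p of 0.13 to 0.26 without any other. USP18, the protease that removes ISG15 and dampens receptor signalling, had 205, 243 and 191 in 3D, against 154, 117 and 255 in 2D. The highest library was 2D replicate 3, so the cultures overlapped. On the log2 scale the difference was 0.35 ± 0.31 (SE; limma adjusted p = 0.43) and 0.65 without 2D replicate 3 (adjusted p = 0.045), with adjusted p of 0.48 to 0.87 without any other; 18.3% of its 75-base exon windows are shared with USP41. HERC5, the main human ligase for ISG15, averaged 171 ± 17.4 in 3D and 181 ± 56.4 in 2D (SD, n = 3 each; log2 change -0.04, limma adjusted p = 0.93).

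The 4 IFIT genes, which bind viral RNA and lie side by side on chromosome 10 (chr10:89283694-89421001, GRCh38, GENCODE 29), split. IFIT1 had 135, 348 and 142 normalised counts in 3D, against 19.1, 14.9 and 122 in 2D. The 2D libraries differed more among themselves than 2D replicate 3 did from the nearest 3D library. This gave a log2 change of 2.48 ± 0.75 (SE; limma adjusted p = 0.043). Without 2D replicate 3 it was 3.41 (adjusted p = 0.00051), and without any other library the adjusted p was 0.089 to 0.14. With edgeR on all 6 libraries it was 0.084. IFIT5, the next gene along, had 169.8, 180.3 and 154 in 3D, against 395, 298 and 249 in 2D. Every 3D library was below every 2D library. The fitted log2 change was -0.87 ± 0.24 (SE; limma adjusted p = 0.031). The adjusted p was 0.0048 without 2D replicate 3 and 0.051 to 0.13 without any other. IFIT2 had 70.5, 158 and 89.8 in 3D, against 154, 169.7 and 167 in 2D. Only 3D replicate 2 stood within the 2D range. The log2 change was -0.70 ± 0.32 (SE; limma adjusted p = 0.14) and -1.03 without 3D replicate 2 (adjusted p = 0.036), with adjusted p of 0.13 to 0.40 without any other. IFIT3 averaged 111 ± 38.3 in 3D and 146 ± 26.3 in 2D (SD, n = 3 each; log2 change -0.42, limma adjusted p = 0.33).

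The OAS genes, whose enzymes make the 2-5A messenger that activates RNase L, had log2 changes above 0 with all libraries, save that OAS3 turned under 3 of the alternatives, and OAS1 and OASL rose. OAS1 had 370.2, 451 and 430.4 normalised counts in 3D, against 61.9, 55.5 and 323 in 2D. The 3D libraries lay together above all 2D libraries, and 2D replicate 3 was close to them. 3D minus 2D came to 1.99 ± 0.59 on the log2 scale (SE; limma adjusted p = 0.041). Without 2D replicate 3 it was 2.80 (adjusted p = 4.4e-05), without any other library the adjusted p was 0.10 to 0.14, and edgeR on all 6 gave 0.093. OASL, a family member without the enzyme activity, had 96.5, 336 and 126 in 3D, against 37.2, 40.6 and 81.2 in 2D. The cultures did not overlap, and 3D replicate 2 was the highest by far. On the log2 scale the difference was 1.67 ± 0.50 (SE; limma adjusted p = 0.044) and 2.02 without 2D replicate 3 (adjusted p = 0.010), with adjusted p of 0.056 to 0.14 without any other.

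OAS2 and OAS3 lie next to OAS1 on chromosome 12 (chr12:112906777-113011723, GRCh38, GENCODE 29). OAS2 had 89.1, 126 and 98.1 normalised counts in 3D, against 12.4, 8.54 and 83.3 in 2D. The order of the libraries was close to that of OAS1, with 2D replicate 3 just under the lowest 3D library. This gave a log2 change of 2.24 ± 0.73 (SE; limma adjusted p = 0.056) and 3.21 without 2D replicate 3 (adjusted p = 0.00022), with adjusted p of 0.13 to 0.17 without any other. With all 6 scaled to equal totals OAS2 was called (adjusted p = 0.049), and with a pseudocount of 10 it was at 0.050, just under the threshold. OAS3 had 1167, 979 and 1301 in 3D, against 715, 754 and 2077 in 2D. Here 2D replicate 3 was the highest of all libraries. The fitted log2 change was 0.14 ± 0.38 (SE; limma adjusted p = 0.82) and 0.64 without 2D replicate 3 (adjusted p = 0.014), with adjusted p of 0.72 to 0.96 without any other. The sign of OAS3 turned without 2D replicate 1 (-0.13), without 2D replicate 2 (-0.09) and with DESeq2.

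**Figure D4:**
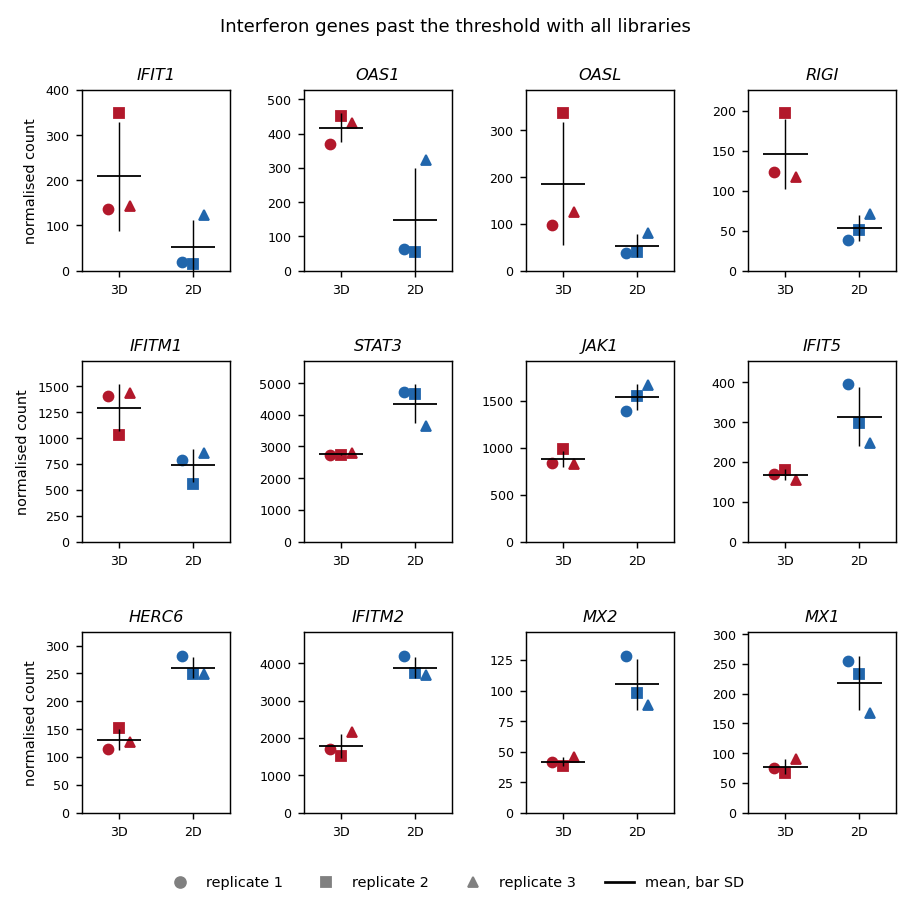
The y axis of each panel is the normalised count of a member called with all 6 libraries, with 3D left and 2D right; points are libraries, horizontal lines are means and vertical bars are the SD (n = 3 each), cut where they pass below 0. In the panels of IFIT1 and OAS1, 2D replicate 3 (triangle) is at 122 and 323, far above the other 2D libraries, while the panels of MX1 and IFITM2 show the cultures well apart.

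The IFITM proteins, which block viral entry at membranes, also split. IFITM2 had 1707, 1514 and 2152 normalised counts in 3D, against 4207, 3751 and 3694 in 2D. Every 3D library was well below every 2D library. The log2 change was -1.13 ± 0.18 (SE; limma adjusted p = 0.0048; 0.0012 to 0.031 over the 6 leave-one-out fits). IFITM1 had 1410.3, 1032 and 1433 in 3D, against 792, 555 and 859 in 2D. All 3D libraries were above all 2D libraries. 3D minus 2D came to 0.82 ± 0.22 on the log2 scale (SE; limma adjusted p = 0.032). The adjusted p was 0.0078 without 2D replicate 3, 0.031 without 3D replicate 2 and 0.076 to 0.13 without any other. Both values are uncertain: 32.5% of the exon bases of IFITM1 overlap IFITM2 on the same strand, and 29.7% of the IFITM1 windows and 24.2% of the IFITM2 windows recur in other genes. IFITM3 averaged 5285 ± 998 in 3D and 5773 ± 634 in 2D (SD, n = 3 each; log2 change -0.14, limma adjusted p = 0.63). Of its exon bases 21.29% overlap other genes, most of all AC136475.5 on the opposite strand. BST2 had 5535, 6749 and 6123 in 3D, against 2672, 2209.7 and 5882 in 2D. 2D replicate 3 stood within the 3D range. On the log2 scale the difference was 0.91 ± 0.33 (SE; limma adjusted p = 0.078) and 1.33 without 2D replicate 3 (adjusted p = 0.00036), with adjusted p of 0.15 to 0.23 without any other.

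MX1 and MX2, dynamin-like GTPases that trap viral particles, lie together on chromosome 21 (chr21:41361943-41459214, GRCh38, GENCODE 29) and both fell. MX1 had 74.2, 66.9 and 90.8 normalised counts in 3D, against 255, 233 and 168 in 2D. The cultures were well apart, with 2D replicate 3 the lowest 2D library. This gave a log2 change of -1.48 ± 0.27 (SE; limma adjusted p = 0.0077; 0.00097 to 0.040 over the 6 leave-one-out fits). MX2 had 41.8, 37.8 and 45.4 in 3D, against 129, 98.2 and 88.4 in 2D. The cultures did not overlap in this gene either. The fitted log2 change was -1.30 ± 0.29 (SE; limma adjusted p = 0.016). The adjusted p was 0.0045 without 2D replicate 3, 0.036 without 3D replicate 2 and 0.052 to 0.075 without any other library. GBP1, an interferon-gamma responsive GTPase, averaged 57.3 ± 12.2 in 3D and 93.9 ± 10.6 in 2D (SD, n = 3 each; log2 change -0.72, limma adjusted p = 0.10), with no overlap. SAMD9, which restricts poxviruses, had 152, 282 and 153 in 3D, against 140.1, 124 and 335 in 2D (log2 change 0.06, limma adjusted p = 0.93). RSAD2, which makes a chain-terminating nucleotide, had 5 reads in all 3D libraries together and 0 in 2D. Against a floor of 3 reads summed over the 2D libraries, 3D came to 1.60-fold. The counting error of the 5 reads in 3D is left out, so this is no lower bound. No difference is drawn from so few reads.

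Of the remaining members, IFI6, IFI44 and IFI35 were not called with all 6 libraries but were with a library left out, and IFI16 and IFI27 in no such fit. IFI6, a mitochondrial and reticulum membrane protein that blocks cell death, had 2189.7, 1802 and 2333 normalised counts in 3D, against 496, 307 and 2662 in 2D. 2D replicate 3 was above every 3D library and the other 2D libraries were far below. The log2 change was 1.5 ± 0.66 (SE; limma adjusted p = 0.13) and 2.42 without 2D replicate 3 (adjusted p = 0.00011), with adjusted p of 0.19 to 0.35 without any other. IFI44 had 13.9, 48.5 and 11.4 in 3D, against 2.86, 0 and 14.4 in 2D. Again 2D replicate 3 lay within the 3D range. 3D minus 2D came to 2.42 ± 1.00 on the log2 scale (SE; limma adjusted p = 0.11) and 3.41 without 2D replicate 3 (adjusted p = 0.011), with adjusted p of 0.17 to 0.28 without any other library that left it testable. Without 3D replicate 2 its mean was under 10. IFI35, which forms a complex with NMI, had 494, 1115 and 548 in 3D, against 984, 819.9 and 890.3 in 2D. 3D replicate 2 was the highest library and the other 3D libraries the lowest. On the log2 scale the difference was -0.42 ± 0.30 (SE; limma adjusted p = 0.33) and -0.78 without 3D replicate 2 (adjusted p = 0.029), with adjusted p of 0.32 to 0.71 without any other. IFI16, a nuclear DNA sensor, averaged 954 ± 95.4 in 3D and 799 ± 186 in 2D, and IFI27 80.1 ± 20.1 in 3D and 74.1 ± 18.0 in 2D (SD, n = 3 each; limma adjusted p = 0.36 and 0.83). IFI44L had 37 reads in 3D and 12 in 2D, and EPSTI1 9 in 3D and 20 in 2D.

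**Figure D5:**
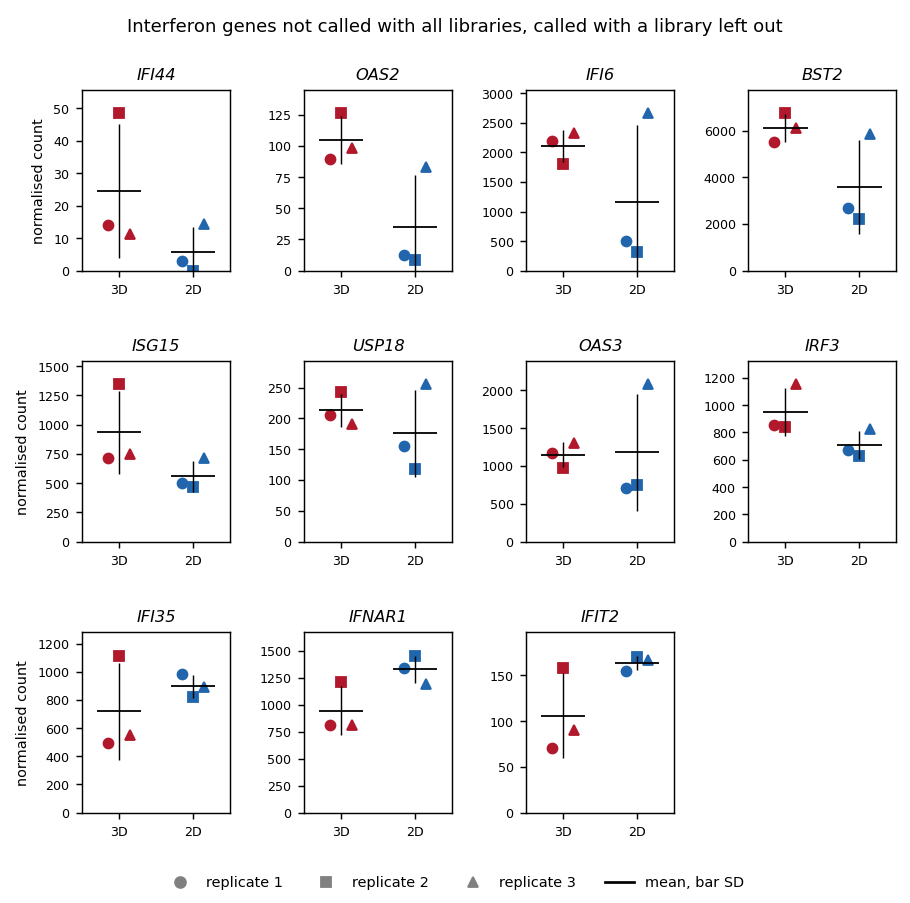
The y axis of each panel is the normalised count of a member not called with all 6 libraries by limma on the deposited values but called in a fit with a library left out, with 3D left and 2D right; points are libraries, horizontal lines are means and vertical bars are the SD (n = 3 each), cut where they pass below 0. In the panels of IFI6 and OAS3, 2D replicate 3 (triangle) is the highest library, at 2662 and 2077, and in the panels of ISG15 and IFI35, 3D replicate 2 (square) is the highest, at 1343 and 1115.

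Interferon genes themselves were barely read. Of 22 listed, 5 had a row and none reached the mean for testing. IFNB1 had 0 reads in 3D and 2 in 2D, IFNE 8 in 3D and 0 in 2D, IFNK 1 in 3D and 2 in 2D, IFNL2 4 in 3D and 1 in 2D, and IFNL4 2 in 3D and 0 in 2D, in all libraries together. For IFNE, an epithelial type I interferon, 3D came to 2.56-fold a floor of 3 reads summed over the 2D libraries. The counting error of the 8 reads in 3D is left out, so this is no lower bound.

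A further list held other interferon-stimulated genes, with 42 of 46 in the table and 39 tested, of which 3 rose (7.69%, background 12.5%) and 7 fell (17.9%, background 11.6%). GBP2, a guanylate-binding GTPase, had 213, 135 and 197 normalised counts in 3D, against 18.1, 6.41 and 9.25 in 2D. No 2D library approached a 3D library, and the log2 change was 3.99 ± 0.42 (SE; limma adjusted p = 0.00087; 0.00028 to 0.0097 over the 6 leave-one-out fits). LGALS9, which encodes the lectin galectin-9, had 114 reads in 3D and 1 read in 2D, a ratio of 109.6 with an exact 95% binomial interval of 19.3 to 4366 that covers counting error only (limma adjusted p = 0.0012). SAMD9L, the neighbour and relative of SAMD9, had 27.8, 51.4 and 27.9 in 3D, against 152, 167 and 133 in 2D. This gave a log2 change of -2.10 ± 0.33 (SE; limma adjusted p = 0.0045), with no overlap. DDX60L, a helicase-like protein, averaged 261 ± 10.9 in 3D and 599.6 ± 126 in 2D (SD, n = 3 each), a log2 change of -1.18 ± 0.21 (SE; limma adjusted p = 0.0069). These 4 genes were called in each of the 6 fits with a library left out. Without 2D replicate 3, 11 of 38 were higher (background 22.7%) and 8 lower (background 22.8%).

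Of 26 listed genes from the rest of the pathway, 24 had a row and 21 were tested, of which 1 rose (4.76%, background 12.5%) and 4 fell (19.0%, background 11.6%). TLR3, the endosomal sensor of double-stranded RNA, had 70.5, 48.5 and 97.03 normalised counts in 3D, against 360.2, 380.03 and 304 in 2D. The cultures were far apart, and the log2 change was -2.31 ± 0.29 (SE; limma adjusted p = 0.0019; 0.00052 to 0.012 over the 6 leave-one-out fits). IKBKE, a kinase that activates IRF3 and IRF7, had 244, 446 and 286 in 3D, against 60.04, 69.4 and 169.6 in 2D. The fitted log2 change was 1.81 ± 0.42 (SE; limma adjusted p = 0.018; 0.00050 without 2D replicate 3, 0.047 without 3D replicate 1 and 0.057 to 0.066 without any other). IRF5 averaged 74.4 ± 11.3 in 3D and 173 ± 43.5 in 2D (SD, n = 3 each; log2 change -1.19, limma adjusted p = 0.021; 0.0024 without 2D replicate 3 and 0.051 to 0.092 without any other). PTPN11, a phosphatase of receptor signalling, averaged 3753 ± 207 in 3D and 5425 ± 404 in 2D (SD, n = 3 each; log2 change -0.53, limma adjusted p = 0.041; 0.020 without 2D replicate 3 and 0.057 to 0.15 without any other).

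Of 15 listed antigen-presentation genes, 11 had a row and 9 were tested, of which 2 rose (22.2%, background 12.5%) and 1 fell (11.1%, background 11.6%). NLRC5, the activator of class I genes, averaged 935 ± 223 in 3D and 501 ± 86.8 in 2D (SD, n = 3 each; log2 change 0.88, limma adjusted p = 0.029; 0.0059 without 2D replicate 3, 0.018 without 3D replicate 2 and 0.093 to 0.12 without any other). B2M, the light chain of class I molecules, averaged 5283 ± 496 in 3D and 3602 ± 271 in 2D (SD, n = 3 each; log2 change 0.55, limma adjusted p = 0.040; 0.0098 without 2D replicate 3 and 0.088 to 0.14 without any other). ERAP1, which trims peptides for class I, averaged 700.3 ± 49.2 in 3D and 1382 ± 194 in 2D (SD, n = 3 each; log2 change -0.97, limma adjusted p = 0.0073; 0.00065 to 0.041 over the 6 leave-one-out fits). The class I heavy chains are highly polymorphic and near-identical to one another, so their counts are uncertain and no level is drawn from them.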

How the data were processed

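Poly(A) RNA of 3 libraries each of 3D and 2D M14 cultures was sequenced on an Illumina NovaSeq from TruSeq v2 libraries, per the labels' protocols. Strand is not kept by this kit, and antisense genes that overlap share reads that no count can separate. The submitters' processing notes name GRCh38, HISAT2, DESeq2 and featureCounts 1.5.0, and their annotation is not given in the sources used here. Deposited is a signal per gene, meaning read counts that the authors divided by 1 size factor per library. Every value was a whole multiple of a library's step, and 100% came out as whole reads within 0.01 of a read.

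Symbols were found for 26506 of 26748 genes. Coordinates and exon lengths came from GENCODE 29, and promoters from RefSeq. Genes with a mean of at least 10 were tested with limma 3.58.1 (R 4.3.3, lmFit and eBayes with a trend) on log2(value + 1) of the deposited signal, two-sided, with Benjamini-Hochberg adjustment over all genes and a threshold of 0.05. Fold changes on this log2(value + 1) scale understate the change of low genes. On the recovered counts, edgeR 4.0.16 called 3657 genes and DESeq2 1.42.0 called 4724, against 3766 by limma. Each test was also tried on simulated counts with the same dispersion for every gene and no library that stood apart. That trial cannot show how the tests behave where libraries stand apart, as they did here. Members and lists were chosen with earlier results of these data known. The named members are those called, or called with a library left out. From each further list up to 4 called genes with the smallest adjusted p are named. The alternatives were 2 other pseudocounts, no filter and a stricter one, other scalings, a replicate block, robust variance, the count tests and leaving out libraries. Replicate numbers were taken from the titles. Shared exon windows were 75 bases long.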

Additional observations from a re-analysis of the deposited data

How the results depend on the processing

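Of 39 tested members, calls depended mostly on which libraries were fitted. With 1 library left out, all genes called ranged from 1177 to 7152, members higher from 0 to 13 and members lower from 2 to 8. By limma, the 0 counts came with 6 to 8 members higher at an unadjusted p under 0.05, where edgeR called 3 and DESeq2 5 on all libraries. Other interferon-stimulated genes ranged from 2 to 11 higher and from 2 to 8 lower, other pathway genes from 1 to 9 and antigen-presentation genes from 1 to 5. With both of the libraries that stood apart left out (3D replicate 2, 2D replicate 3), 9046 of 15683 genes were called, 28.2% higher and 29.4% lower. Beside this background, 13 of 38 members were higher and 15 lower, and 12 of 38 other interferon-stimulated genes were higher and 9 lower. Of 21 other pathway genes 9 were called, and of 9 antigen-presentation genes 6. edgeR called 3 members higher (background 12.5%) and 3 other pathway genes. DESeq2 called 5 other interferon-stimulated genes higher (background 15.4%) and 5 antigen-presentation genes. No filter gave 3 other pathway genes. Scaling to equal totals moved the median of all genes to 0.11, with 15.5% of all genes higher and 8.01% lower. It gave 7 members higher and 6 lower, 5 and 3 other interferon-stimulated genes and 3 other pathway genes. The cause was not tested. The log2 change of OAS3, 0.14 with all libraries, was -0.0081 with DESeq2 and -0.133 to 0.636 over the 6 leave-one-out fits, negative in those without 2D replicate 1 (-0.133) or 2D replicate 2 (-0.0944).

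Replicates with the same number did not deviate together from the mean of their culture (correlations of -0.08, -0.14 and 0.05). With so few libraries per culture, of which 3D replicate 2 and 2D replicate 3 stood apart, this cannot show whether they shared a batch. With the replicate block, 3222 of the 15598 genes tested were called in either direction. Of 39 members 7 were higher and 6 lower, and 3 of 21 other pathway genes were called. OAS2 (adjusted p = 0.036) and IFI6 (0.047) gained a call under the block and STAT3 (0.061) lost it. Few libraries and low counts limit IFI44, RSAD2, IFI44L, EPSTI1 and the interferon genes.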
